A study of Mus musculus with 4 samples.

Results

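The genes described here are those of microglia, the resident macrophages of the brain, and of antigen presentation by major histocompatibility complex (MHC) class II. They were chosen by symbol in the probe annotation of the array, from a list of 10 genes, and 9 of them had a probe, among 16383 genes with a symbol in all. The 9 are H2-Aa, Cd74, Tyrobp, C1qa, C1qb, Csf1r, Cx3cr1, Aif1 and Spp1, each read by 1 probe on every array, and H2-Ab1 was not analysed here. H2-Aa stands in the annotation under its older symbol H2Aa.

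RNA labelled as dorsal raphe nucleus, the serotonergic nucleus of the midbrain and pons, was measured on 4 single-colour arrays. Each of the 4 groups had 1 array, hybridised with the RNA of a pool of 5 mice, all of them males on a C57BL/6J background, 10 weeks old. The groups were stressed D2LR-KO mice, which lack the long form of the dopamine D2 receptor, stressed D2R-KO mice, which lack that receptor, stressed wild-type mice (stressed WT) and non-stressed WT mice. The stressed mice swam for 6 min a day on 4 days in a row, with dissection 12 h after the last swim, and no array of non-stressed knockout mice was analysed here. The design sets each stressed group against non-stressed WT to find genes that respond to swimming. With 1 pool per group the spread between samples is unknown, so the differences below carry no test, and the small number of arrays limits their precision.

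Microglia sense their surroundings through receptors such as CX3CR1, which binds the neuronal chemokine fractalkine, and CSF1R, whose signal keeps them alive. TYROBP carries the signal of surface receptors such as TREM2 into the cell, and C1q starts the classical complement cascade. MHC class II molecules, of which H2-Aa encodes an alpha chain in the mouse and Cd74 the chaperone called the invariant chain, present peptides to CD4+ T cells. In the resting brain they are found mainly on macrophages and dendritic cells of the meninges, vessels and choroid plexus, and little on parenchymal microglia. Spp1 encodes osteopontin, a secreted phosphoprotein made by activated microglia and macrophages and also by large neurons of the brainstem and spinal cord.

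Levels are given as the authors' deposited intensities, on a linear scale with an array median of 25, and folds on a log2(signal + 50) scale computed from the scanner values, which understates the differences of dim genes. Levels of different probes cannot be set against each other, so values are compared between arrays within a gene. A gene is counted as higher or lower when it differs at least 1.5-fold (0.585 on the log2 scale) between 2 arrays. All 9 genes were detected on all 4 arrays, that is, brighter than the blank spots allow, Cd74 by the smallest margin, its spots lying at 3.05 times the limit in stressed D2LR-KO, 1.80 times in stressed D2R-KO, 1.62 times in stressed WT and 2.72 times in non-stressed WT. The stressed WT array stood apart from the other 3, with correlations to them of 0.954 to 0.962 across 14704 genes detected on all arrays, against 0.990 to 0.994 among the other arrays, so that comparisons with it call many genes of any kind. Pooled tissue RNA was measured, so fewer cells of a type and less RNA per cell cannot be told apart.

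The cell types were read from marker lists. Of 30 further microglial markers 28 had a probe, and all 28 were detected on at least 1 array, among them P2ry12, the purinergic receptor of resting microglia, with intensities of 160.9 in stressed D2LR-KO, 120.3 in stressed D2R-KO, 61.8 in stressed WT and 112.4 in non-stressed WT. Tmem119, another gene of resting microglia, had 63.0 in stressed D2LR-KO, 70.2 in stressed D2R-KO, 42.7 in stressed WT and 59.4 in non-stressed WT. Microglial RNA was thus present on all 4 arrays. Of the serotonergic markers of the labelled tissue, Tph2, the enzyme of serotonin synthesis, had 151.5 in stressed D2LR-KO, 264.6 in stressed D2R-KO, 10.7 in stressed WT and 31.4 in non-stressed WT. Tph2 was thus low on both WT arrays. It does not stand for its list, of which 11 genes had a probe. In D2LR-KO over stressed WT their median log2 fold was 0.24, with 7 above 0 and 4 below, against 2.19 for Tph2. In D2R-KO over stressed WT the median was 0.27, with 9 above 0 and 2 below, against 2.76 for Tph2. Drd2, the targeted gene, had 48.3 in stressed D2LR-KO, 20.9 in stressed D2R-KO, 43.8 in stressed WT and 26.8 in non-stressed WT, and the place of its probe relative to the deleted parts is not known here, so it does not check the genotype.

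**Figure D1:**
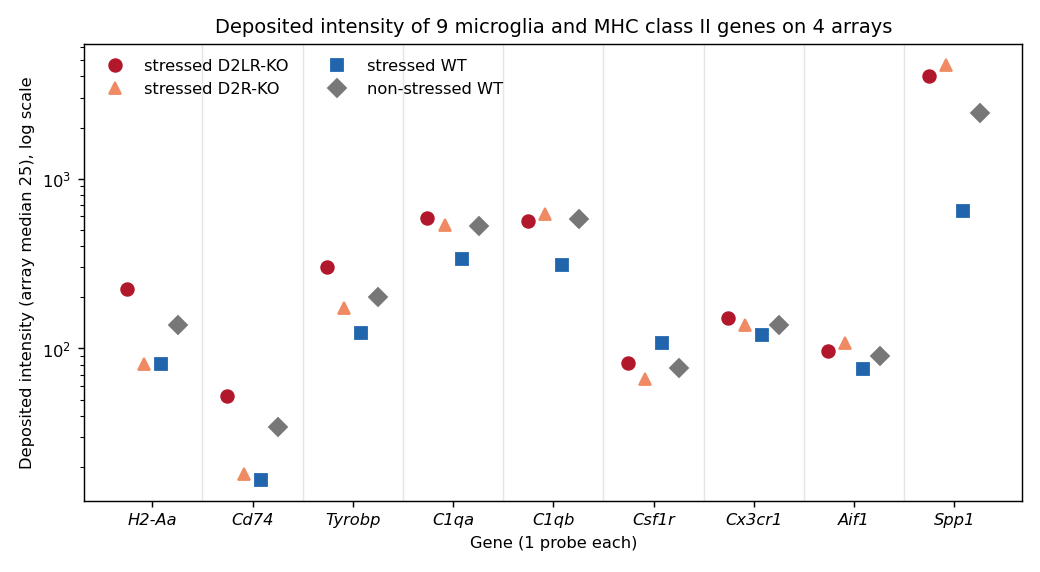
Deposited intensity (log axis) of the 9 genes, 1 point per array, to be read within a gene and not between genes. H2-Aa, Cd74 and Tyrobp are highest in stressed D2LR-KO, and Spp1 is lowest in stressed WT, at 645.4.

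H2-Aa and Cd74, both of MHC class II, were higher in stressed D2LR-KO than in stressed D2R-KO, and H2-Aa had the largest fold of the 9 genes there. H2-Aa had a deposited intensity of 225.0 in stressed D2LR-KO, 80.7 in stressed D2R-KO, 81.5 in stressed WT and 138.2 in non-stressed WT. It was 2.38-fold higher in D2LR-KO than in D2R-KO (log2 1.25), 2.04-fold higher than in stressed WT (log2 1.03) and 1.51-fold higher than in non-stressed WT (log2 0.59). The D2R-KO and stressed WT arrays were thus low and close to each other, with a log2 fold of -0.22 for D2R-KO over stressed WT. The fold of D2LR-KO over non-stressed WT was log2 0.41 with each array scaled to 1 median, and -0.13 with local background, that is, the brightness around each spot in place of the blank spots. Against non-stressed WT, H2-Aa was 1.58-fold lower in D2R-KO (log2 -0.66) and 1.36-fold lower in stressed WT (log2 -0.44). Among 15606 genes compared between D2LR-KO and D2R-KO, 0.0449% had a higher fold than H2-Aa.

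By deposited intensity Cd74 was highest in D2LR-KO, next highest in non-stressed WT and low on the other arrays. It had 52.3 in stressed D2LR-KO, 18.3 in stressed D2R-KO, 16.8 in stressed WT and 34.5 in non-stressed WT. It was 1.72-fold higher in D2LR-KO than in D2R-KO (log2 0.78) and 1.80-fold higher than in stressed WT (log2 0.85). The ratio of the deposited intensities was larger, at 2.86 for D2LR-KO over D2R-KO, since the offset of 50 weighs more on a dim gene. Against non-stressed WT its log2 folds were 0.36 in D2LR-KO, -0.42 in D2R-KO and -0.49 in stressed WT, none of them past 1.5-fold.

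The start of the H2-Aa gene is shown because class II promoters are known for shared X and Y boxes, through which the coactivator CIITA acts, and those of Spp1 and C1qb because these genes did not follow H2-Aa. The sequences are the 250 bases before the annotated transcription start, 5′ to 3′ on the gene's strand, from the RefSeq promoter table of build GRCm38.p6. Of the 9 genes 5 were searched there (Aif1, C1qb, Cx3cr1, H2-Aa and Spp1), and the promoters of the other genes were not read. Capitals mark 3 motifs looked for on both strands: TGACGTCA, the cyclic AMP response element form of the X2 box, ATTGG (or CCAAT), the core of the Y box bound by NF-Y, and AGGAAGT (or ACTTCCT), a core bound by PU.1, the transcription factor of macrophages. They were chosen after these sequences had been seen. The H2-Aa stretch is chr17:34287824-34288073 on the minus strand, that of Spp1 chr5:104434861-104435110 on the plus strand, the more upstream of its 2 starts in the table, and that of C1qb chr4:136886201-136886450 on the minus strand.
H2-Aa: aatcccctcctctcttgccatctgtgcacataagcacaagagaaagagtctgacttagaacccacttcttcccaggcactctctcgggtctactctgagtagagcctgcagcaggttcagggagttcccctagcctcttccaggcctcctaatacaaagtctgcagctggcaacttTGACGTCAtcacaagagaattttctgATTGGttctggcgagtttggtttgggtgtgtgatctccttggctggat
Spp1: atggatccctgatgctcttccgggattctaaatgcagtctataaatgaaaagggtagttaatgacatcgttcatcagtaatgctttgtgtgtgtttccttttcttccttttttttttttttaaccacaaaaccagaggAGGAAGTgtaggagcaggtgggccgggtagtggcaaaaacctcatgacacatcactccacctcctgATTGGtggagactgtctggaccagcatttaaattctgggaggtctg
C1qb: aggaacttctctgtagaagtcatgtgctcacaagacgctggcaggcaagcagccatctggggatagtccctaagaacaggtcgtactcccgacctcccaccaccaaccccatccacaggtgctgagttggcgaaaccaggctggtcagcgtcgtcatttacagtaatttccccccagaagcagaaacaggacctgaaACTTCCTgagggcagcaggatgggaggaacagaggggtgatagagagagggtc
In H2-Aa the TGACGTCA began 74 bases and the ATTGG 48 bases before the start. Spp1 had AGGAAGT 112 bases and ATTGG 46 bases before its start, and C1qb had ACTTCCT 53 bases before its start. Of the sequences searched but not shown, Cx3cr1 had ATTGG alone, 32 bases before its start. Aif1 and the more downstream start of Spp1 had none of the 3 motifs. Of 32851 promoter windows of this length in the table, 1.55% held TGACGTCA, 33.8% held ATTGG or CCAAT and 7.69% held AGGAAGT or ACTTCCT. Such matches are a description of the letters and not evidence of binding.

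The other measured genes of the class II pathway did not follow H2-Aa and Cd74. Of 15 listed genes 7 had a probe, and between D2LR-KO and D2R-KO none of the 7 passed 1.5-fold (median log2 fold 0.00). The 7 are regulators, processing enzymes and a costimulatory gene. No listed gene of a further class II chain, such as H2-Eb1, was among them, so those chains were not read. Ciita, which encodes the coactivator of class II genes, had 52.6 in stressed D2LR-KO, 47.3 in stressed D2R-KO, 103.9 in stressed WT and 47.7 in non-stressed WT. It was highest on the stressed WT array, where H2-Aa and Cd74 were low. Ctss, cathepsin S, the protease that trims the invariant chain and a microglial gene as well, had 557.3 in stressed D2LR-KO, 606.7 in stressed D2R-KO, 236.0 in stressed WT and 540.0 in non-stressed WT. Its only differences past 1.5-fold were thus against stressed WT, with log2 folds of 0.83 for D2LR-KO and 0.80 for D2R-KO over stressed WT, and -0.82 for stressed WT over non-stressed WT. Rfx5, Rfxap and Rfxank, subunits of the factor that binds the X box, and Ifi30, a lysosomal thiol reductase, stayed within 1.5-fold in all 6 comparisons, as did the costimulatory gene Cd86.

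Tyrobp was the third gene past 1.5-fold between the knockouts, again on the higher side in D2LR-KO. It had 301.4 in stressed D2LR-KO, 172.8 in stressed D2R-KO, 124.1 in stressed WT and 202.1 in non-stressed WT. It was 1.71-fold higher in D2LR-KO than in D2R-KO (log2 0.77), 1.84-fold higher than in stressed WT (log2 0.88) and 1.39-fold higher than in non-stressed WT (log2 0.48). In D2R-KO and stressed WT it lay below non-stressed WT, with log2 folds of -0.29 and -0.40, both of which turned to the higher side (0.21 and 0.45) with local background. The brightness around its spot differed between the arrays, at 40.0 in stressed D2LR-KO, 205.2 in stressed D2R-KO, 102.4 in stressed WT and 370.7 in non-stressed WT. It was lowest on the array where the Tyrobp spot itself was highest (492.4, against 348.7 in D2R-KO, 235.9 in stressed WT and 452.8 in non-stressed WT).

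Genes that act with Tyrobp were read beside it. Trem2, the receptor that signals through TYROBP, had 176.5 in stressed D2LR-KO, 145.6 in stressed D2R-KO, 111.6 in stressed WT and 131.6 in non-stressed WT. Its largest log2 fold was 0.36, for D2LR-KO over stressed WT. Spi1, which encodes PU.1, lay between 20.6 and 26.9 on the 4 arrays. Of 19 genes listed for the TREM2, TYROBP and CSF1R pathways 18 had a probe, and none passed 1.5-fold between D2LR-KO and D2R-KO (median log2 fold 0.05). In stressed WT over non-stressed WT 2 of the 18 were higher, Ikzf1 at 0.99 and Csf2ra at 0.62. In that comparison 7.27% of all genes were higher, and 12.8% of those at or above the median signal. Against stressed WT, Ikzf1, a lymphoid and myeloid transcription factor, and Csf2ra, a receptor subunit for GM-CSF, were lower in D2LR-KO (log2 -0.82 and -0.68) and in D2R-KO (log2 -0.69 and -0.67). Of all genes 8.20% were lower in D2LR-KO and 8.64% in D2R-KO, so these counts are near the background.

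**Figure D2:**
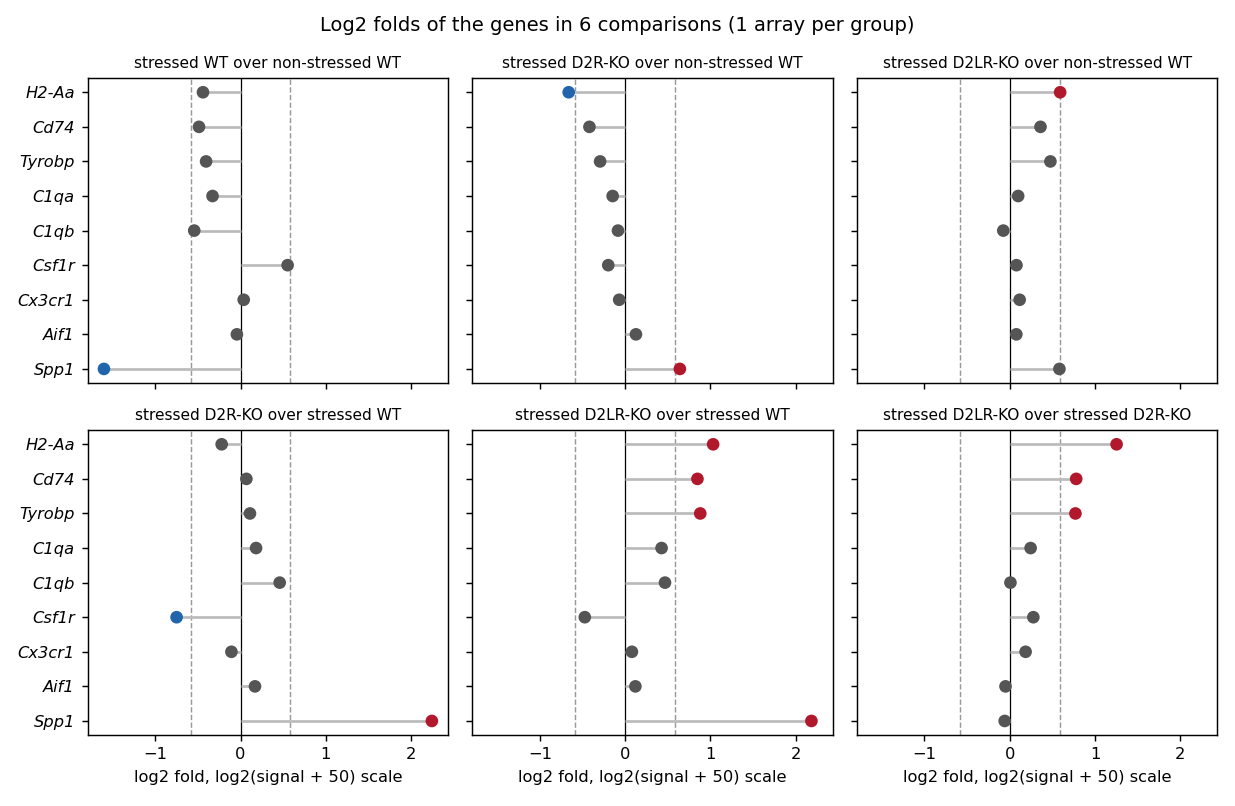
Log2 folds of the 9 genes in 6 comparisons, with dashed lines at 1.5-fold in either direction, red points past it on the higher side and blue points past it on the lower side. H2-Aa, Cd74 and Tyrobp pass it in D2LR-KO over D2R-KO, and Spp1 passes it in the 3 comparisons with stressed WT and in D2R-KO over non-stressed WT.

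The complement genes C1qa and C1qb, which encode chains of C1q, were lowest in stressed WT and close to each other on the other arrays. C1qa had 590.6 in stressed D2LR-KO, 534.9 in stressed D2R-KO, 335.9 in stressed WT and 527.7 in non-stressed WT. C1qb had 564.6 in stressed D2LR-KO, 618.5 in stressed D2R-KO, 312.2 in stressed WT and 576.3 in non-stressed WT. Neither passed 1.5-fold in any of the 6 comparisons, the largest log2 fold being -0.54 for C1qb in stressed WT over non-stressed WT. With median scaling in place of quantile normalization both did pass it there, at -0.81 for C1qa and -1.03 for C1qb. The brightness around both spots was highest in D2R-KO (628 for C1qa and 835 for C1qb, against 119 and 247 in D2LR-KO), and with it as background D2R-KO over non-stressed WT moved to -1.20 for C1qa and -1.75 for C1qb. C1qc, the gene of the third chain and not among the 10, had 347.9 in stressed D2LR-KO, 297.7 in stressed D2R-KO, 270.5 in stressed WT and 366.5 in non-stressed WT.

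Among 17 further complement genes 14 had a probe. Between D2LR-KO and D2R-KO the list median was 0.02, and 0.660% of all genes were higher in D2LR-KO. Of the 14 genes 1 passed 1.5-fold there. It was Serping1, the C1 inhibitor, which is also made by fibroblasts and vessel cells. Serping1 had 206.7 in stressed D2LR-KO, 86.2 in stressed D2R-KO, 64.1 in stressed WT and 125.0 in non-stressed WT. The order of arrays was that of Cd74 and Tyrobp, with a log2 fold of 1.08 for D2LR-KO over D2R-KO.

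Cx3cr1 and Aif1 had the narrowest ranges of the 9 genes on the log2 signal scale, 0.19 and 0.17. Cx3cr1 had 151.1 in stressed D2LR-KO, 137.3 in stressed D2R-KO, 119.5 in stressed WT and 136.7 in non-stressed WT. Its log2 folds lay between -0.11 and 0.19 in the 6 comparisons, and those of Aif1, the calcium-binding protein IBA1 used to stain microglia, between -0.05 and 0.17. Aif1 had 96.3 in stressed D2LR-KO, 108.3 in stressed D2R-KO, 76.0 in stressed WT and 90.5 in non-stressed WT. These spans are of the size of the SD of repeated positive control spots between 2 arrays, 0.107 to 0.241 on the log2 scale, which covers spots on an array and not mice. The control spots were far brighter, with mean log2 signals of 12.1 to 13.5, so their SD need not hold for Cx3cr1 and Aif1. With local background the spans were wider, with Aif1 at 0.80 in D2LR-KO, past 1.5-fold, and 0.51 in stressed WT over non-stressed WT, and Cx3cr1 at -0.58 in D2R-KO and -0.46 in stressed WT over non-stressed WT.

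Csf1r ran against the other genes on the stressed WT array. It had 82.4 in stressed D2LR-KO, 66.0 in stressed D2R-KO, 108.3 in stressed WT and 76.9 in non-stressed WT. Stressed WT was thus the highest array for Csf1r and the lowest for 7 of the other 8 genes, all but H2-Aa, by deposited intensity. Csf1r was 1.68-fold lower in D2R-KO than in stressed WT (log2 -0.75) and had a log2 fold of -0.47 in D2LR-KO over stressed WT and 0.55 in stressed WT over non-stressed WT. The first of these shrank to -0.41 with local background, to -0.47 with median scaling and to -0.55 from the deposited values with a pseudocount of 25, none of them past 1.5-fold.

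The ligands of these receptors were read beside them. Csf1, a ligand of CSF1R, had 305.0 in stressed D2LR-KO, 341.6 in stressed D2R-KO, 181.6 in stressed WT and 261.4 in non-stressed WT, and none of its 6 folds passed 1.5-fold. Il34, the other ligand, had 98.8 in stressed D2LR-KO, 90.6 in stressed D2R-KO, 90.8 in stressed WT and 135.4 in non-stressed WT, with its largest log2 fold at -0.52 for D2R-KO over non-stressed WT. Cx3cl1, which encodes fractalkine, had 328.8 in stressed D2LR-KO, 349.8 in stressed D2R-KO, 107.6 in stressed WT and 341.7 in non-stressed WT. It was thus low on the stressed WT array alone (log2 -1.25 against non-stressed WT), while its receptor Cx3cr1 differed by 0.04 there.

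Spp1 had the widest range of the 9 genes and a pattern of its own. It had 4019.1 in stressed D2LR-KO, 4690.0 in stressed D2R-KO, 645.4 in stressed WT and 2453.7 in non-stressed WT. It was 4.54-fold higher in D2LR-KO than in stressed WT (log2 2.18) and 4.73-fold higher in D2R-KO than in stressed WT (log2 2.24), and 3.03-fold lower in stressed WT than in non-stressed WT (log2 -1.60). Against non-stressed WT it was 1.56-fold higher in D2R-KO (log2 0.64) and at log2 0.58 in D2LR-KO, just short of 1.5-fold. The knockouts differed from each other by -0.06 on the log2 scale (D2LR-KO over D2R-KO). In the comparison of D2R-KO with non-stressed WT 0.449% of genes had a higher fold than Spp1, and for stressed WT over non-stressed WT 0.237% had a lower one. The brightness around its spot was 692 in stressed D2LR-KO, 3656 in stressed D2R-KO, 304 in stressed WT and 3381 in non-stressed WT. With that brightness as background the log2 fold over non-stressed WT was 1.52 in D2LR-KO and 1.04 in D2R-KO, and it was -0.86 in stressed WT, all in the same direction as before.

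Receptors of osteopontin and markers of motor neurons were set beside Spp1. Of 12 listed osteopontin receptors and related genes all had a probe, and against stressed WT the integrin genes Itgb1 and Itgb5 were higher in D2LR-KO (log2 1.19 and 1.14) and in D2R-KO (log2 0.86 and 1.04). Over stressed WT 8.72% of all genes were higher in D2LR-KO and 9.33% in D2R-KO. Itgb1 and Itgb5 were also the 2 of the 12 that were lower in stressed WT than in non-stressed WT (log2 -0.92 and -0.83). In that comparison 8.12% of all genes were lower, and 14.5% of those at or above the median signal. The second share does not cover the dim genes of the list, such as Cd44 and Itga4. With 12 genes, a count of 2 is near the background. Itga8 was higher in stressed WT than in non-stressed WT (log2 0.77). Dmp1, a matrix protein of the same family as osteopontin, was higher in D2R-KO than in non-stressed WT (log2 0.61). In D2R-KO over stressed WT, Dmp1 was higher as well (log2 0.76) and Itga8 lower (log2 -0.77), where 8.64% of all genes were lower. Between the knockouts none of the 12 passed 1.5-fold. The motor neuron marker Chat, the enzyme that makes acetylcholine, ran the other way, with 17 in stressed D2LR-KO, 20.5 in stressed D2R-KO, 48.3 in stressed WT and 16.2 in non-stressed WT. It does not stand for its list. In stressed WT over non-stressed WT 9 markers of cholinergic and motor neurons were compared, with a median log2 fold of 0.04. Of these 5 lay above 0 and 4 below, and 2 were at least 1.5-fold higher (Chat and Ache), where 7.27% of all genes were. Nefh, the heavy neurofilament of large neurons, had 294.6 in stressed D2LR-KO, 456.4 in stressed D2R-KO, 216.1 in stressed WT and 186.1 in non-stressed WT. The part of large neurons in the Spp1 level was not tested.

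For the 9 genes together the share past 1.5-fold was set beside that of all genes in each comparison. In D2LR-KO over D2R-KO 3 of 9 genes were at least 1.5-fold higher (H2-Aa, Cd74 and Tyrobp) and none lower, with a median log2 fold of 0.24, whereas 0.660% of 15606 genes were higher and 0.333% lower, with a median of 0.00. Among genes whose mean signal was at or above the median, which include all 9, 1.11% were higher. The median of the 9 genes was 0.02 with median scaling and 0.65 with local background. The 3 genes stayed past 1.5-fold on the higher side in all 9 other ways of processing that kept that threshold. Their log2 folds were 0.80 to 1.47 for H2-Aa, 0.65 to 1.47 for Cd74 and 0.60 to 1.5 for Tyrobp. Detection on both arrays, no detection filter and the mean of probes are among these ways. They could not change a fold, since each gene had 1 probe and was detected on every array. At 2-fold, H2-Aa alone of the 3 passed.

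**Figure D3:**
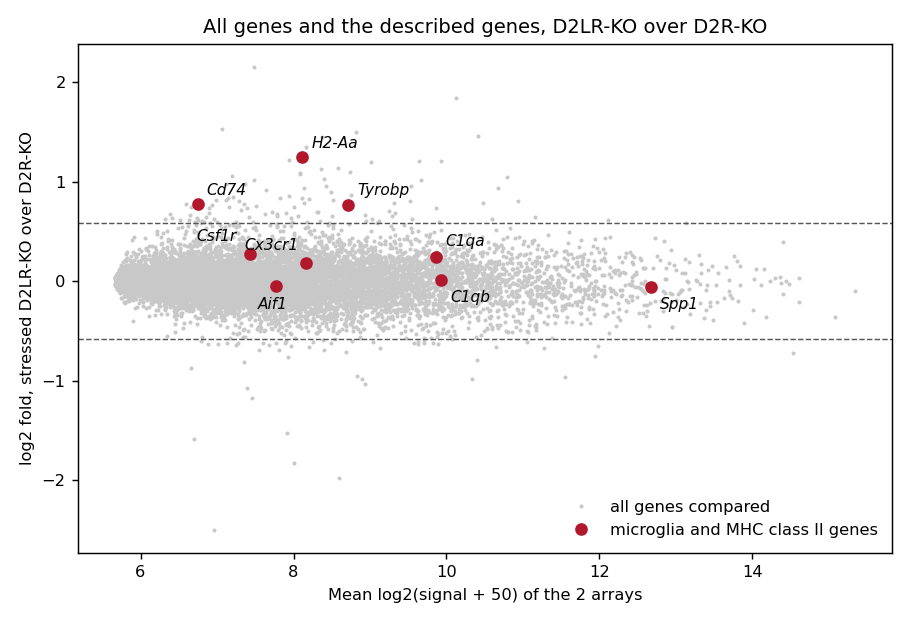
Log2 fold of D2LR-KO over D2R-KO (y axis) against the mean log2(signal + 50) of the 2 arrays (x axis) for 15606 genes in grey and the 9 genes in red, with dashed lines at 1.5-fold. H2-Aa (1.25), Cd74 (0.78) and Tyrobp (0.77) lie above the upper line, and the other 6 genes lie inside the grey band, between -0.06 and 0.28.

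Each knockout was also set against non-stressed WT, a comparison that changes stress and genotype at once. In D2LR-KO 1 of 9 genes was higher, H2-Aa, and none lower (median log2 fold 0.12, or -0.06 with median scaling), where 0.745% of 15574 genes were higher and 1.41% lower (median 0.00). As given above, H2-Aa did not stay past 1.5-fold there with local background or with median scaling. In D2R-KO 1 of 9 was higher, Spp1, and 1 lower, H2-Aa (median -0.15), where 0.577% of 15607 genes were higher and 1.49% lower (median 0.01). H2-Aa stayed past 1.5-fold on the lower side there in all 9 other ways of processing, and Spp1 on the higher side in all 9. As said above, the detection rules and the mean of probes could not change these folds. These comparisons share the non-stressed WT array.

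In stressed WT over non-stressed WT 1 of 9 genes was lower, Spp1, and none higher (median log2 fold -0.40), where 8.12% of 15643 genes were lower and 7.27% higher (median 0.00). In all, 7 of the 9 genes had a fold below 0 there, among them H2-Aa, Cd74, Tyrobp, C1qa and C1qb, and 5 of the 9 were at least 1.5-fold lower with median scaling, where 16.5% of all genes were. A count of 1 in 9 is close to the share of all genes in this comparison.

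Against stressed WT, 4 of 9 genes were higher in D2LR-KO, namely H2-Aa, Cd74, Tyrobp and Spp1, and none lower (median log2 fold 0.47), where 8.72% of 15640 genes were higher and 8.20% lower (median -0.01). Among genes at or above the median signal 15.5% were higher. In D2R-KO 1 of 9 was higher, Spp1, and 1 lower, Csf1r (median 0.11, or -0.19 with local background), where 9.33% of 15655 genes were higher and 8.64% lower (median -0.01). The D2R-KO counts are near those of all genes. Since both comparisons use the stressed WT array, a gene that was low on it is higher in both by construction.

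Markers of several cell types were set beside H2-Aa, Cd74 and Tyrobp. None of the 28 microglial markers passed 1.5-fold in D2LR-KO over D2R-KO, where their log2 folds had a median of 0.21, 22 above 0 and 6 below. Their summed deposited intensity was 3098.1 in stressed D2LR-KO, 2770.7 in stressed D2R-KO, 1866.2 in stressed WT and 2733.5 in non-stressed WT. Over non-stressed WT none of the 28 passed in either knockout, and 5 were lower in stressed WT (Ctss at -0.82, Fcgr3 at -0.72, Gpr34 at -0.68, Mertk at -0.61 and Fcrls at -0.59), where 8.12% of all genes and 14.5% of those at or above the median signal were, so this count is near the background. Of 12 markers of border-associated macrophages, the macrophages of the meninges and perivascular spaces, 11 had a probe, and 2 were higher in D2LR-KO than in D2R-KO, Cbr2 at 0.83 and Pf4 at 0.61 (median 0.18). Of all genes 0.660% were higher there. Mrc1, the mannose receptor of these cells, had 24.6 in stressed D2LR-KO, 9.2 in stressed D2R-KO, 5.2 in stressed WT and 21.0 in non-stressed WT, while Cd163 (5.8 to 7.5) and Lyve1 (10.8 to 15.5) varied little. Folr2 ran the other way, with 58.4 in stressed D2LR-KO, 57.1 in stressed D2R-KO, 97.4 in stressed WT and 68.9 in non-stressed WT. The macrophage markers, with Folr2 the largest part in stressed WT, summed to 311.0 in stressed D2LR-KO, 189.5 in stressed D2R-KO, 180.9 in stressed WT and 247.2 in non-stressed WT.

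Meningeal markers moved more. In D2LR-KO over D2R-KO 0.660% of all genes were higher and 0.333% lower, and 1.11% of those at or above the median signal were higher. Of 13 markers of meninges and fibroblasts 10 were higher in D2LR-KO than in D2R-KO and none lower (median log2 fold 0.74), with Igf2 at 1.84, Crabp2 at 1.45 and Ogn at 1.24, and none was below the detection limit on all arrays. Their summed intensity was 3078.2 in stressed D2LR-KO, 1243.9 in stressed D2R-KO, 948.6 in stressed WT and 1730.9 in non-stressed WT. This is the order of arrays seen for Cd74 and Tyrobp. Of 16 endothelial and mural markers 4 were higher in D2LR-KO than in D2R-KO (median 0.20), led by the smooth muscle genes Tagln at 1.5 and Acta2 at 1.46. The 8 choroid plexus markers had another order, with a summed intensity of 295.3 in stressed D2LR-KO, 118.9 in stressed D2R-KO, 5856.9 in stressed WT and 13218.5 in non-stressed WT. Most of the sum on the WT arrays was Ttr alone, with 193.1 in stressed D2LR-KO, 20.3 in stressed D2R-KO, 5720.2 in stressed WT and 12884 in non-stressed WT. Over stressed WT only Ttr of the 8 passed 1.5-fold in either knockout. Over non-stressed WT 6 of the 8 were lower in each stressed group, where 1.41% to 8.12% of all genes were. The 9 detected dendritic cell markers summed to 222.9 in stressed D2LR-KO, 206.8 in stressed D2R-KO, 187.9 in stressed WT and 178.1 in non-stressed WT, and none of them passed 1.5-fold between the knockouts. The largest part of each sum was Siglech, which is on the microglial list as well. It had 108.2 in stressed D2LR-KO, 93.4 in stressed D2R-KO, 91 in stressed WT and 80.9 in non-stressed WT, so the order of the sums is not particular to dendritic cells. The part of meningeal, vascular or choroid plexus tissue in the levels of H2-Aa, Cd74 and Tyrobp was not tested.

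**Figure D4:**
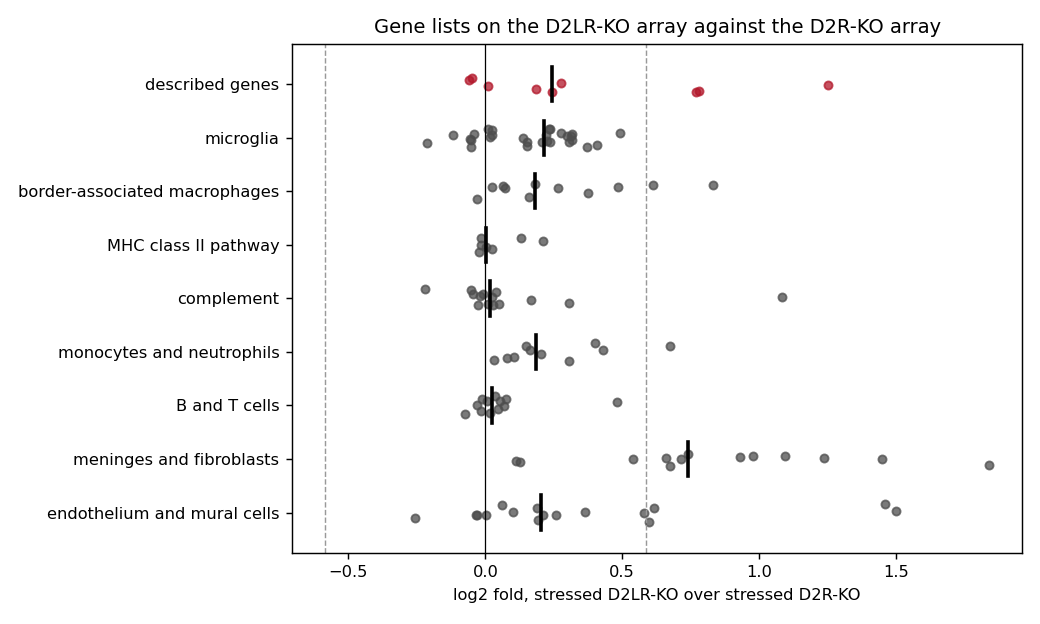
Log2 fold of D2LR-KO over D2R-KO for the 9 genes (red) and for the members of 8 marker or pathway lists (grey), 1 point per gene, with list medians as black bars and dashed lines at 1.5-fold. The meninges and fibroblast list has the highest median (0.74), and no microglial marker passes 1.5-fold.

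The genes with the most similar pattern were found for Tyrobp, H2-Aa and Spp1 by the smallest distance between log2 signals over the 4 arrays, each gene's mean subtracted, among 14261 named genes detected on all arrays. For Tyrobp they were Tm4sf1 (distance 0.06), Ranbp3l (0.07), Rcn3 (0.07), the neutrophil gene S100a9 (0.08) and Cd74 itself (0.10). For H2-Aa they were the intermediate filament gene Vim (0.13), Ifitm1 (0.16), Igfbp2 (0.17), the collagen-processing gene Pcolce (0.17) and Serping1 (0.24), with Cd74 in 9th place (0.34) and Tyrobp in 11th (0.36). H2-Aa stood in 133rd place for Tyrobp. C1qa stood in 256th place for Tyrobp and in 292nd for H2-Aa, and C1qb in 1450th and 1954th. For Spp1 they were the cathepsin Ctsl (0.16), Glrx5 (0.22), the homeobox gene Hoxb5 of hindbrain and spinal cord (0.29), Nol7 (0.35) and the neuronal gene Stmn1 (0.36), each lowest on the stressed WT array. With 4 arrays such likeness is a description only.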

How the data were processed

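The members and the gene lists were chosen with earlier results of these data known. Per the labels' protocols, RNA was amplified as amino allyl aRNA, coupled to Cy5 after the protocol of Toray, the maker of the arrays. Per the file headers, the scanner files hold the median intensity of each spot and of its surroundings at 635 nm, from 3 scans that differed in gain and were merged in a way not stated in the headers. The authors' deposited value table holds intensity that, from the values, is the spot median less a constant of 36.7 to 38.8, over an array factor of 1.51 to 2.05, which sets the array median to 25.

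From the spot medians, signal was computed with limma 3.58.1 in R 4.3.3 by normexp on the blank spots (nec, offset 50), log2 and quantile normalization over all 4 arrays, and tested on simulated data. The detection limit was 2 SD over the mean blank spot, passed by 91.0% to 91.6% of 23474 gene spots, and a gene was compared when detected on at least 1 of 2 arrays. Of 16631 probes with 1 symbol, 3947 had an older symbol updated through RefSeq, and for 229 genes with several probes the brightest was used. Lists and named genes follow a written rule: all members, the list genes farthest from 0 or whose role bears on a member, and the 5 genes of most similar pattern. Python 3.11.15, numpy 2.4.6 and pandas 2.3.3 were used. No adjusted p-value is given, since each group had 1 array.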

Additional observations from a re-analysis of the deposited data

How the results depend on the processing

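Each count of the 9 genes past 1.5-fold was recomputed in 10 other ways. Without background correction, with detection required on both arrays, with no detection filter and with the mean of a gene's probes, all 12 counts stayed within 1.5 times their value. Among these, only leaving out background correction could change a count, since each gene had 1 probe and was detected on every array. With a threshold of 2-fold, the higher genes numbered 1 for D2LR-KO over D2R-KO, 2 for D2LR-KO over stressed WT and 0 for D2LR-KO and for D2R-KO over non-stressed WT, and the lower genes 0 for D2R-KO over non-stressed WT and 0 for D2R-KO over stressed WT. With local background (the brightness around each spot), the higher genes numbered 5 for D2LR-KO over D2R-KO and 3 for D2LR-KO over non-stressed WT, and the lower genes 1 for D2LR-KO, 3 for D2R-KO and 3 for stressed WT over non-stressed WT; H2-Aa turned to -0.13 (log2) for D2LR-KO over non-stressed WT. With an offset of 16, D2LR-KO over non-stressed WT had 2 higher, D2R-KO over non-stressed WT 2 lower, and stressed WT over non-stressed WT 1 higher and 2 lower. With each array scaled to 1 median, D2LR-KO over non-stressed WT had 0 higher, D2R-KO over stressed WT 3 higher and 0 lower, and stressed WT over non-stressed WT 5 lower. The deposited values with a pseudocount of 25 gave 2 higher for D2LR-KO over non-stressed WT, 3 higher and 0 lower for D2R-KO over stressed WT and 5 lower for stressed WT over non-stressed WT. With a pseudocount of 1 they gave 3 higher for D2LR-KO over non-stressed WT, 2 lower for D2R-KO over non-stressed WT, 3 higher for D2R-KO over stressed WT and 6 lower for stressed WT over non-stressed WT. The cause of these shifts was not tested.

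The share of all genes moved as well. For D2LR-KO over D2R-KO, 3.0% of genes were higher and 2.47% lower with local background, 2.82% and 3.23% with the deposited values and a pseudocount of 1, and 0.417% and 2.02% with median scaling, against 0.660% and 0.333%. Median scaling turned the split of all genes to 2.69% higher and 16.5% lower for stressed WT over non-stressed WT, against 7.27% and 8.12%, to 18.5% higher and 3.76% lower for D2R-KO over stressed WT, against 9.33% and 8.64%, and to 12.0% higher and 4.35% lower for D2LR-KO over stressed WT, against 8.72% and 8.20%. It gave 0.865% higher and 1.57% lower for D2R-KO over non-stressed WT, against 0.577% and 1.49%, and 0.347% higher and 2.90% lower for D2LR-KO over non-stressed WT, against 0.745% and 1.41%. With local background the shares over non-stressed WT were 7.04% higher and 5.06% lower in D2R-KO and 6.95% higher and 4.77% lower in D2LR-KO. Signal limits Cd74 most, the dimmest of the 9 genes. No paired analysis was possible because each group had 1 array.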

Other observations

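The measured genes of the MHC class I pathway had another pattern than H2-Aa and Cd74. Of 18 listed genes 7 had a probe, and none passed 1.5-fold between D2LR-KO and D2R-KO (median log2 fold 0.16). No listed gene of a class I heavy chain, such as H2-K1, was among the 7, so those chains were not read. B2m, the light chain of class I molecules, had deposited intensities of 2214.8 in stressed D2LR-KO, 2063.2 in stressed D2R-KO, 728.7 in stressed WT and 1511.7 in non-stressed WT, and Tapbp, which loads peptides onto them, had 89.2 in stressed D2LR-KO, 84.5 in stressed D2R-KO, 38.6 in stressed WT and 83.4 in non-stressed WT. Both were low on the stressed WT array, with log2 folds of -0.70 and -0.68 over non-stressed WT. They were the 2 of the 7 that were lower there, where 8.12% of all genes were, and 14.5% of those at or above the median signal.

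Genes of blood leukocytes were read as well. Of 17 lymphocyte markers 14 had a probe, and in stressed WT over non-stressed WT 3 were higher, Ptprcap at 1.23, Cd22 at 0.72 and Ltb at 0.59, and none lower, where 7.27% of all genes were higher. Among 10 measured markers of monocytes and neutrophils, S100a9 had 32 in stressed D2LR-KO, 9.2 in stressed D2R-KO, 4.8 in stressed WT and 15.1 in non-stressed WT. Lcn2, a secreted iron-siderophore binding protein, had 36.7 in stressed D2LR-KO, 32.8 in stressed D2R-KO, 46.1 in stressed WT and 99.2 in non-stressed WT. It was lower in all 3 stressed groups than in non-stressed WT (log2 -0.94 in D2LR-KO, -1.04 in D2R-KO and -0.68 in stressed WT). Lcn2 does not stand for its list. The list's median log2 fold over non-stressed WT was 0.18 in D2LR-KO, -0.12 in D2R-KO and -0.06 in stressed WT. In D2LR-KO 6 of the 10 lay above 0 and 4 below. Plac8 was lower as well in D2R-KO (log2 -0.71) and in stressed WT (log2 -0.68). Of all genes 1.41% were lower in D2LR-KO, 1.49% in D2R-KO and 8.12% in stressed WT. Of 15 measured genes of activated microglia other than Spp1, 1 was higher over stressed WT in each knockout and 1 lower. The cathepsin gene Ctsz was higher (log2 1.27 in D2LR-KO and 1.11 in D2R-KO), and Cd9 was lower (log2 -0.68 and -0.92). Of all genes 8.72% and 9.33% were higher there and 8.20% and 8.64% lower, so these counts are near the background. Over non-stressed WT only Lpl passed 1.5-fold in the knockouts, lower in D2LR-KO (log2 -0.72) and in D2R-KO (log2 -0.66). Of all genes 1.41% and 1.49% were lower there. None of the 15 passed 1.5-fold between the knockouts.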
